A study of Sorghum bicolor with 12 samples.

Results

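DHN1 (LOC8077913) and CS66 (LOC8071330) are dehydrin genes of sorghum (Sorghum bicolor), and they are 2 of the 33897 genes in the deposited table. They were picked by name, and the pick was made because their levels in leaves of the cultivar Sanchisan (SCS) under drought were far above those in watered leaves. Values of these 2 genes that involve SCS libraries are therefore given as a description, with no test. Drought against a normal water supply in the cultivar Jinliang 5 (JL) is the comparison that the choice did not use. Tests of other genes do include SCS libraries, and the gene lists were chosen with earlier results of these data known. The study measured total leaf RNA of both cultivars by strand-specific RNA sequencing. The groups were SCS drought, SCS control with normal water, JL drought and JL control, with 3 libraries each and 12 in all. The labels give no length or depth of the drought and no leaf age. Nor do they tell whether a group's 3 libraries are from different plants, and all p-values here refer to library-to-library spread, part or all of which may be technical.

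Dehydrins are very hydrophilic, largely disordered proteins that form a class of the late embryogenesis abundant (LEA) proteins. They carry a conserved lysine-rich stretch, the K-segment, which can fold on membranes and on other proteins, and they are thought to protect cell structures while water is lost. Many accumulate in drying seeds and in leaves under drought, cold or salt, and many of their genes respond to the hormone abscisic acid (ABA). In maize, DHN1 is also known as RAB17, an ABA-responsive dehydrin that casein kinase 2 phosphorylates. CS66 is named after a cold-induced wheat dehydrin.

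DHN1 lies on the plus strand of chromosome 9 at 45915591 to 45916640, and its counted length was 918 bases. CS66 lies on the plus strand of chromosome 10 at 3242462 to 3244015, with a counted length of 1460 bases. Both positions are those of the deposited table and are the same in assembly Sorghum_bicolor_NCBIv3. In the deposited description both genes carry the Pfam dehydrin domain, and the best protein match of both is maize DHN1. Promoter and protein sequences were not used here.

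Library totals ran from 15.04 to 18.4 M counts, and TMM scaling factors from 0.757 to 1.41. All 14 chlorophyll a-b binding protein genes and all 12 genes for C4 enzymes and the Rubisco small subunit had counts in every group, so leaf markers were present. The summed chlorophyll a-b binding level differed between groups, at 2539 to 13898 CPM (TMM-scaled counts per M counts) in SCS drought, 7219 to 31466 CPM in SCS control, 44739 to 123089 CPM in JL drought and 33321 to 103045 CPM in JL control. Of 57 seed and embryo genes, a list that includes storage globulins and peroxygenases also used in other tissues, 28 had counts in SCS drought, against 19 in SCS control, while 17 had counts in JL drought, against 18 in JL control. Any count in a group was enough for this, and the matching number over all genes was not worked out, so nothing is read from it. The summed level of the 57 genes spanned 390.5 to 1366 CPM in SCS drought and 831 to 1304 CPM in SCS control, with 697 to 1178 CPM in JL drought and 998 to 1313 CPM in JL control. The 4 root marker genes summed to at most 1.501 CPM in any library. The part of these marker levels in the dehydrin values was not tested, and in bulk leaf RNA a different number of cells of one type cannot be told apart from a different amount of RNA per cell.

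DHN1 was among the most abundant transcripts of SCS leaves under drought and close to the detection limit in watered SCS leaves. The 3 SCS drought libraries held 150047, 139731 and 27657 DHN1 counts, against 11, 1 and 8 counts in SCS control. Scaled, these were 8399, 7079 and 1221 CPM in SCS drought, against 0.490, 0.0417 and 0.455 CPM in SCS control. The groups did not overlap, and the lowest SCS drought library was 2490 times the highest SCS control library. Across all tested genes, 14.6% lay wholly higher in SCS drought, a share from which nothing is read here because the choice of DHN1 used this contrast. The mean was 5566 ± 3821 CPM in SCS drought and 0.329 ± 0.249 CPM in SCS control (SD, n = 3 each).

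**Figure D1:**
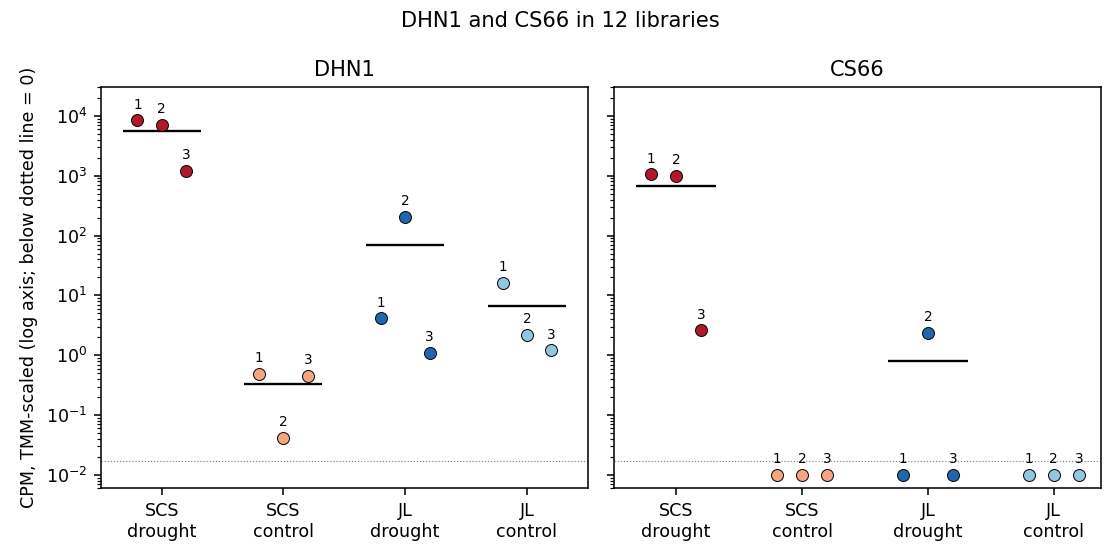
DHN1 and CS66 in each library, as counts per M counts (TMM-scaled) on a log axis, by group; points are libraries with their replicate number, horizontal lines are group means, and values of 0 are drawn below the dotted line. DHN1 reached 1221 to 8399 CPM in SCS drought and 203 CPM in 1 JL drought library, while CS66 was at 0 in 8 of 12 libraries.

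Per length, on the deposited FPKM scale (fragments per kilobase per M fragments), DHN1 stood at 9034, 7604 and 1332 FPKM in SCS drought, against 0.515, 0.0438 and 0.479 FPKM in SCS control. That placed DHN1 first of all genes in SCS drought libraries 1 and 2 and in place 9 in library 3. Its transcripts made up 0.963% of all counts of SCS drought library 1 (Wilson 95% interval 0.958 to 0.968%), 0.890% of library 2 (0.885 to 0.895%) and 0.172% of library 3 (0.170 to 0.174%). The intervals cover counting error only, and the spread between the libraries was far wider than the intervals.

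In JL, DHN1 was low in 5 of 6 libraries and clearly higher in a single droughted one. JL drought libraries 1, 2 and 3 held 53, 2376 and 15 counts, or 4.14, 203 and 1.10 CPM, against 193, 26 and 18 counts, or 16.4, 2.17 and 1.21 CPM, in JL control. The groups overlapped: JL drought library 2 was the highest of the 6 and JL drought library 3 the lowest. The mean was 69.5 ± 116 CPM in JL drought and 6.59 ± 8.50 CPM in JL control (SD, n = 3 each). Without library 2 the JL drought mean was 2.62 CPM, and without JL control library 1 the JL control mean was 1.69 CPM. On the FPKM scale DHN1 ranked 422nd of all genes in JL drought library 2.

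CS66 was found almost nowhere outside SCS drought. It had 18942, 19587 and 59 counts in SCS drought, against 0 counts in each SCS control library, and 0, 28 and 0 counts in JL drought, against 0 in each JL control library. Scaled, SCS drought libraries 1, 2 and 3 stood at 1060, 992 and 2.60 CPM, and JL drought library 2 at 2.40 CPM. Thus 2 SCS drought libraries were high, the third lay just over the only JL library with counts, and 8 of 12 libraries were at 0. Of the 38616 CS66 counts in the series, 99.9% came from SCS drought. For DHN1 the same share was 99.2% of 320136 counts.

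The CS66 mean was 685 ± 592 CPM in SCS drought (SD, n = 3), and 3 counts over the 3 SCS control libraries, the limit that a count of 0 allows, correspond to 0.0468 CPM. Per length, CS66 stood at 717, 670.2 and 1.79 FPKM in SCS drought, which placed it 60th, 59th and 14533rd of all genes. Set against the limit for SCS control, the SCS drought level, from counts pooled over the 3 libraries, was at least 13643-fold higher. That bound became 9877, 9995 and 21807 without SCS drought library 1, 2 and 3. CS66 passed the filter on low counts through SCS drought alone, so its difference from the other groups is partly built into its being kept. DHN1 also passed the filter, so both genes were fitted.

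The drop in SCS drought library 3 was far larger for CS66 than for DHN1. Library 3 lay below the mean of libraries 1 and 2 by a log2 difference of -2.66 for DHN1, the 536th lowest of 20873 genes, and of -8.56 for CS66, the 7th lowest. The median of all genes in this contrast was 0. The highest SCS drought library was 6.88 times the lowest for DHN1 and 407 times the lowest for CS66. The total of library 3, 16.1 M counts, was the highest of its group, its TMM factor of 1.41 was the highest of the series, and its summed chlorophyll a-b binding level of 2539 CPM was the lowest of the 12 libraries; whether these bear on the drop was not tested.

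The ratio of DHN1 to CS66 transcripts within a library needs no scaling between libraries. Per kilobase of counted length, DHN1 outnumbered CS66 12.6 to 1 in SCS drought library 1 (exact 95% interval 12.4 to 12.8) and 11.3 to 1 in library 2 (11.2 to 11.5). In SCS drought library 3 the ratio was 746 (578 to 980), and in JL drought library 2 it was 135 (93.1 to 204). These intervals, too, cover counting error only, and each ratio is that of a single library. The first and the second ratio lay close together, and the other 2 were higher. No other library had the 10 counts of each gene required for a ratio.

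The order of the DHN1 group means was SCS drought, JL drought, JL control and SCS control. The lowest SCS drought library was 6.005 times the highest JL drought library, so the first 2 neighbours in that order did not overlap. JL drought and JL control overlapped, and SCS control lay wholly below JL control. The SCS minus JL log2 difference for DHN1 was 6.32 ± 1.96 (fitted value ± SE) in drought and -4.32 ± 1.90 in control, so that the gene was higher in SCS than in JL under drought and lower in SCS than in JL with normal water. The corresponding share of all tested genes without overlap was 15.6% for those higher in SCS under drought and 12.3% for those lower in SCS in control. The JL control values are 18 to 193 counts and the SCS control values 1 to 11 counts, so the control difference rests on few counts and on the JL control library with 193.

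The drought change in SCS minus that in JL was 10.64 ± 2.72 on the log2 scale for DHN1. It was 15.37 when JL drought library 2 was left out. For CS66 the SCS drought mean was 858 times the JL drought mean of 0.799 ± 1.38 CPM (SD, n = 3), but the lowest SCS drought library was only 1.09 times the highest JL drought library. With both controls at 0 counts, neither a control difference nor a difference between the changes can be given for CS66.

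Neither gene passed the test for drought against control in JL. For DHN1 the edgeR quasi-likelihood fit gave a log2 fold change of 3.40 ± 1.72 (SE), with an adjusted p of 1 over all genes (Benjamini-Hochberg; 0.0752 before adjustment). An exact two-sided permutation test of the 3 against 3 log2 values gave p = 0.7, where 0.1 is the smallest p the design allows. Only 1 of 3 JL drought libraries lay above all JL controls. Without JL drought library 2 the fitted change was -1.33, the opposite sign. For CS66 the adjusted p in edgeR was 1. The exact test gave p = 1 for CS66, the only value it could give with counts in JL drought library 2 alone, so it decides nothing. The CS66 level of JL drought, from counts pooled over the 3 libraries, was at least 9.43-fold above the limit of JL control. That bound was carried by the 28 counts of JL drought library 2. In this comparison edgeR called 0 of 20873 genes (0%), 3.71% had an unadjusted p below 0.05, and DESeq2 called 36 genes, neither member among them.

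The deposited table holds 3 other dehydrin genes, HIRD11, COR410 and Rab25, and 2 of the 3 rose in SCS drought, where 4.09% of all tested genes were called higher. Rab25 (LOC8059149, chromosome 3, 60681174 to 60682281), named after an ABA-responsive rice dehydrin, had 79.5, 81.7 and 13.6 CPM in SCS drought, against 0, 0.1251 and 0.0568 CPM in SCS control. Its log2 fold change was 9.71 ± 2.20 (edgeR adjusted p = 0.0235). The groups did not overlap, and 14.6% of all tested genes also lay wholly higher in SCS drought. Like CS66, Rab25 passed the filter on low counts through SCS drought alone, so a difference was partly built into its being kept, whereas DHN1, COR410 and HIRD11 pass it without the SCS drought libraries. COR410 (LOC8073921, chromosome 4, 62897898 to 62899329), named after an acidic wheat dehydrin found at the plasma membrane, had 2704, 1655 and 1114 CPM in SCS drought, against 67.7, 92.7 and 18.5 CPM in SCS control. It rose by 4.94 ± 1.15 on the log2 scale (edgeR adjusted p = 0.0262), again without overlap. Both calls were lost without SCS drought library 1 or without any one SCS control library, with an edgeR adjusted p of up to 0.105 for COR410 and 0.103 for Rab25.

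HIRD11 (LOC8057216, chromosome 1, 12013862 to 12014777), whose Arabidopsis counterpart is a histidine-rich dehydrin that binds metal ions, had a high level in every library. It stood at 2342, 899 and 1564 CPM in SCS drought, against 539, 469 and 807 CPM in SCS control. The lowest SCS drought library was 1.11 times the highest SCS control library, and the log2 fold change of 1.40 ± 0.41 did not pass the test (edgeR adjusted p = 0.0576), while DESeq2 called it higher (adjusted p = 0.00631). DESeq2 gave COR410 an adjusted p of 5.73e-06 and returned no p for Rab25. In JL, HIRD11 averaged 593 ± 149 CPM in drought and 559 ± 156 CPM in control (SD, n = 3 each), with overlapping groups.

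Between the cultivars, COR410 was higher in SCS drought than in JL drought by 4.71 ± 1.14 on the log2 scale (edgeR adjusted p = 0.0187) and HIRD11 by 1.43 ± 0.41 (adjusted p = 0.0366), where 7.55% of all tested genes were called higher. Rab25 overlapped between these groups and did not pass (3.18 ± 1.55, edgeR adjusted p = 0.177). The test of the difference between the drought changes, which called 0.513% of all tested genes, called none of the other 3 dehydrins. Of these 3, 2 had an unadjusted edgeR p below 0.05, as did 3221 of all 20873 tested genes. DESeq2 called neither COR410 nor HIRD11 and returned no p for Rab25. The SCS change minus the JL change was 3.41 ± 1.42 for COR410 (edgeR adjusted p = 0.289), 1.32 ± 0.58 for HIRD11 (adjusted p = 0.31) and 3.51 ± 3.27 for Rab25 (adjusted p = 0.645).

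**Figure D2:**
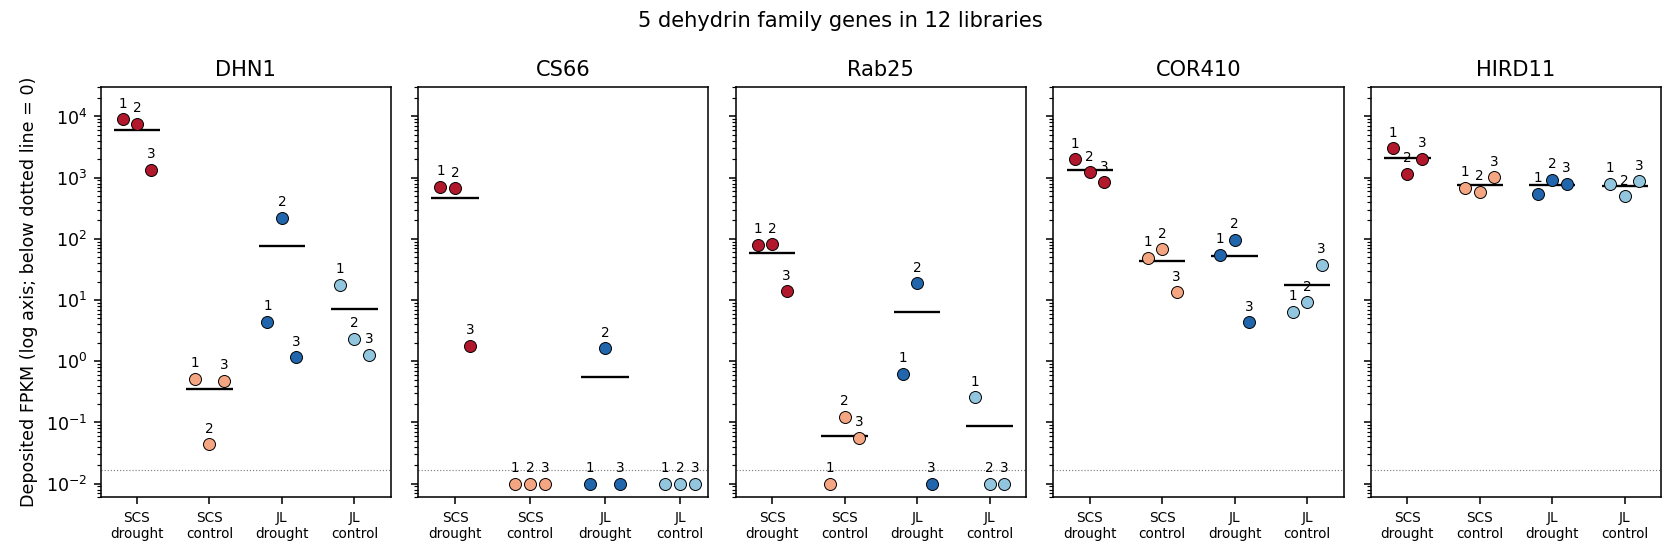
The 5 dehydrin genes in each library, as deposited FPKM on a log axis, by group; points are libraries with their replicate number, horizontal lines are group means, and values of 0 are drawn below the dotted line. HIRD11 lay between 496 and 3019 FPKM in all 12 libraries, while DHN1 spanned 0.0438 to 9034 FPKM.

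None of the other dehydrins passed in JL. Rab25 had 0.625, 18.7 and 0 CPM in JL drought, against 0.255, 0 and 0 CPM in JL control, with a log2 fold change of 6.20 ± 2.07 (unadjusted p = 0.0125, edgeR adjusted p = 1). COR410 had 74.2, 129 and 5.93 CPM in JL drought, against 8.66, 12.3 and 51.3 CPM in JL control (1.53 ± 1.00, edgeR adjusted p = 1). The exact permutation p was 0.4 for Rab25 and 0.6 for COR410. As with DHN1 and CS66, JL drought library 2 held the highest value of both. DHN1 lay 6.48 above the log2 mean of the other 2 JL drought libraries there, the 53rd highest of all genes, with Rab25 at 5.98, CS66 at 4.40, COR410 at 2.61 and HIRD11 at 0.47, against a median of -0.06 over all genes. That library had 15.5 M counts, a TMM factor of 0.757 that was the lowest of the series, and the highest summed chlorophyll a-b binding level, 123089 CPM; their part was not tested.

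Under drought in SCS the make-up of the dehydrin transcripts differed from that in the other groups. The 5 genes took 1.67%, 1.35% and 0.552% of all counts in SCS drought, against 0.0755%, 0.0734% and 0.0836% in SCS control. In JL they took 0.0432%, 0.0808% and 0.0546% in drought, against 0.0477%, 0.0306% and 0.0683% in control. Per kilobase, DHN1 supplied 60.8%, 70.8% and 31.5% of the dehydrin transcripts in SCS drought, against at most 0.0707% in SCS control.

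HIRD11 was the main dehydrin transcript outside SCS drought. It made up 20.3%, 10.8% and 48.3% of dehydrin transcripts per kilobase in SCS drought, against 89.8 to 98.6% in SCS control. In JL it made up 90.2%, 73.5% and 99.3% in drought, against 95.7 to 97.7% in control. DHN1 reached 17.3% in JL drought library 2, against at most 2.19% in JL control. CS66 contributed 4.83%, 6.24% and 0.0422% in SCS drought and 0.129% in JL drought library 2, so DHN1 was the more abundant of the pair in all 4 libraries with CS66 counts.

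**Figure D3:**
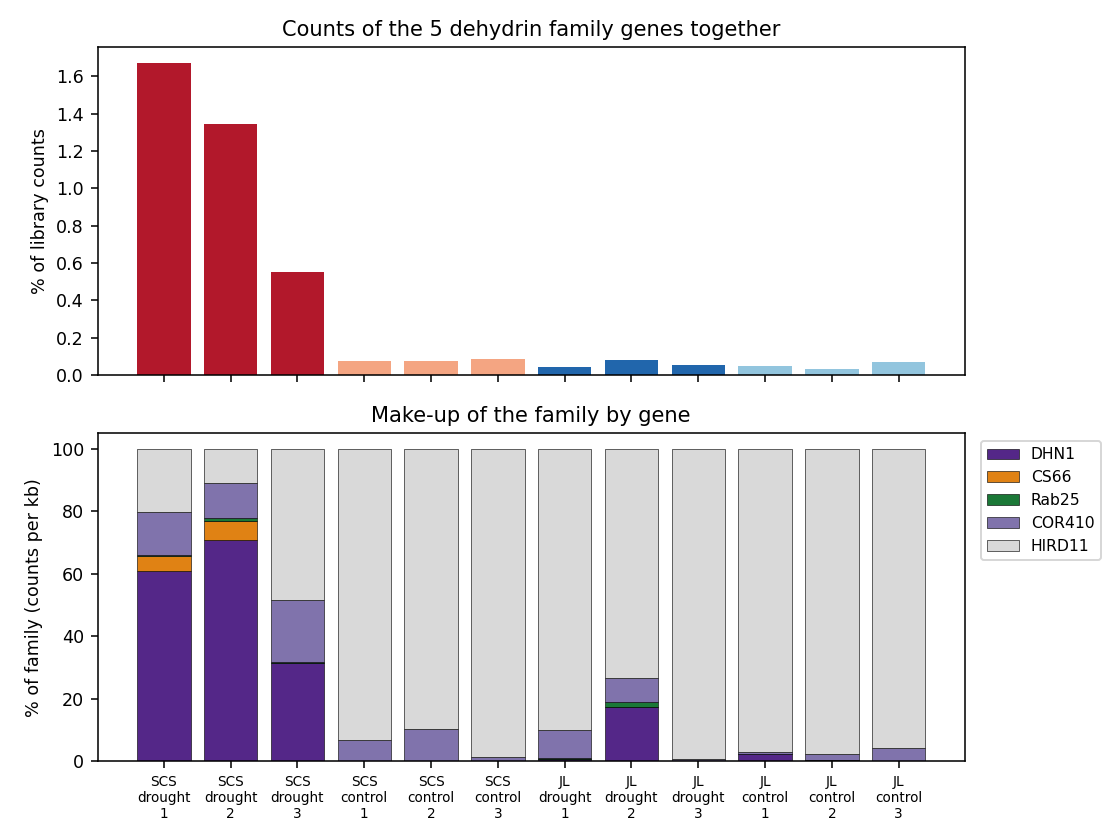
Top, counts of the 5 dehydrin genes together in percent of all counts of a library; bottom, share of each of the 5 genes in the dehydrin transcripts of a library, in percent of counts per kilobase, for all 12 libraries in 4 groups. The top bars reach 1.67%, 1.35% and 0.552% in SCS drought and at most 0.0836% elsewhere. DHN1 supplied 60.8%, 70.8% and 31.5% in the SCS drought libraries, while HIRD11 supplied 73.5% or more in the libraries of the other groups.

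The table holds 35 LEA genes outside the dehydrins, which encode other hydrophilic proteins of drying seeds and stressed leaves. Of the 21 tested, 16 rose in SCS drought (76.2%, against 4.09% of all tested genes) and none fell. Their median log2 fold change was 9.41, or 8.22 with the 7 genes at 0 counts in SCS control set at their lower bound, against -0.07 for all tested genes. The filter on low counts bears on this count and median, because 10 of the 21 genes passed it through SCS drought alone. Of the other 11, 7 rose, against 721 of all 19774 genes that pass without the SCS drought libraries. The median log2 fold change of these 11 was 4.81, against -0.10 for those 19774. For the whole LEA list, the count of genes that rose was 12 to 19 when each SCS library was left out in turn. A group 3-like LEA gene (LOC110430243) had 3490, 2045 and 568 CPM in SCS drought, against 0 counts in SCS control. A gene for an 11 kDa LEA protein (LOC8073244) had 201.5, 89.6 and 26.6 CPM in SCS drought, against 0 counts in SCS control. In SCS drought library 3, 15 of the 21 lay below the mean of libraries 1 and 2, against 10343 of all 20873 tested genes. DHN1, CS66, Rab25 and COR410 also lay below it, while HIRD11 lay above it by a log2 difference of 0.108. In JL drought library 2, 14 of the 21 lay above the mean of libraries 1 and 3, against 47.1% of all tested genes.

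Genes that make, perceive and pass on ABA did not move as a block in SCS drought. Of 29 tested genes for ABA synthesis, breakdown and signalling, 4 rose (13.8%, against 4.09% of all tested genes) and 2 fell (6.9%, against 5.41%). The median log2 fold change of the 29 was 0.05. Leaving out each SCS library in turn gave 2 to 4 genes that rose and 0 to 3 that fell. A 9-cis-epoxycarotenoid dioxygenase gene, NCED1 (LOC8062208), for the rate-limiting step of ABA synthesis, averaged 68.9 ± 25.5 CPM in SCS drought and 1.79 ± 0.388 CPM in SCS control (SD, n = 3 each; log2 fold change 5.27 ± 1.21, edgeR adjusted p = 0.0247). That call was lost in 5 of the 6 fits that left out an SCS library. In JL drought NCED1 had 44.0, 216.6 and 3.07 CPM, with library 2 the highest, against 5.74 ± 4.001 CPM in JL control (SD, n = 3). The ABA list as a whole did not follow that library, since 14 of its 29 genes lay above the mean of the other 2 JL drought libraries and 15 below.

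Among the breakdown and kinase genes, that for ABA 8'-hydroxylase 1 (LOC8073163), which inactivates ABA, rose by 4.40 ± 0.71 on the log2 scale (edgeR adjusted p = 0.007). SAPK3 (LOC110431683), a kinase gene of the family that carries the ABA signal in rice, averaged 85.8 ± 14.6 CPM in SCS drought and 4.77 ± 1.67 CPM in SCS control (SD, n = 3 each; 4.17 ± 0.65, edgeR adjusted p = 0.00613). The fourth gene that rose and 1 of those that fell, both named after seeing their values, are annotated as the ABA receptor PYL8. These 2 copies moved in opposite directions, LOC8065946 up by 1.23 (edgeR adjusted p = 0.0443) and LOC8078346 by -1.34 (adjusted p = 0.034). The other gene that fell is SAPK5 (LOC8076517), with a log2 fold change of -1.57 (edgeR adjusted p = 0.0179), also named after its values were seen.

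Protein phosphatases of type 2C include negative regulators of ABA signalling. Of 69 tested genes, 11 rose in SCS drought (15.9%, against 4.09% of all tested genes) while 3 fell (4.35%, against 5.41%). The first number was 1 to 11 when each SCS library was left out. Of the 11, 10 pass the filter on low counts without the SCS drought libraries. PP2C30 (LOC8084948) averaged 581 ± 224 CPM in SCS drought and 3.95 ± 0.970 CPM in SCS control (SD, n = 3 each; log2 fold change 7.20 ± 1.43, edgeR adjusted p = 0.0144), a call lost without any one SCS control library. In JL drought it had 52.1, 251 and 3.44 CPM, against 12.8 ± 13.0 CPM in JL control (SD, n = 3), with library 2 on top. PP2C49 (LOC110430337) had 16.3, 50.1 and 1.24 CPM in JL drought, the same order, against 1.83 ± 1.04 CPM in JL control (SD, n = 3). PP2C59 (LOC110430818) rose by 8.90 ± 1.91 in SCS drought (edgeR adjusted p = 0.0192, lost without SCS drought library 1 or any SCS control library). It passed the filter on low counts through SCS drought alone, so a difference was partly built into its being kept. In JL drought PP2C59 had 0.234, 6.76 and 0 CPM. The whole phosphatase list did not follow JL drought library 2, since 36 of its 69 genes lay above the mean of the other 2 libraries.

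DREB factors bind drought and cold response elements. Of the 7 tested, 1 rose in SCS drought (14.3%, against 4.09% of all tested genes) and none fell. It is annotated DREB1A (LOC8054869) and was named after its values were seen. It had 0.672, 22.2 and 0.441 CPM in SCS drought, against 0.0717 ± 0.0885 CPM in SCS control (SD, n = 3), so library 2 carried the level. DREB1A passed the filter on low counts through SCS drought alone, and its call was made without SCS drought library 3 but in none of the other 5 fits that left out an SCS library. Of 52 other ABA- and stress-responsive genes, 8 rose (15.4%, against 4.09% of all tested genes) and none fell. The number that rose was 5 to 10 when each SCS library was left out. Of the 8, 5 pass the filter without the SCS drought libraries. The most abundant of those named is an ABA-stress-ripening gene (LOC110429605), for a small hydrophilic protein, with 3012, 2662 and 590.4 CPM in SCS drought, against 76.0, 49.9 and 65.4 CPM in SCS control (log2 fold change 5.03 ± 0.68, edgeR adjusted p = 0.00421). HVA22 (LOC8080659), named after an ABA-induced barley gene, and the universal stress protein gene PHOS32 (LOC8075220) averaged 27.9 ± 16.9 and 27.4 ± 25.7 CPM in SCS drought, against 0 counts and 0.397 ± 0.165 CPM in SCS control (SD, n = 3). The PHOS32 call was lost without SCS drought library 1 or any SCS control library. Like DREB1A, HVA22 and this PHOS32 gene passed the filter on low counts through SCS drought alone. Of 6 casein kinase 2 genes, the kinase that phosphorylates maize DHN1, edgeR called none in SCS drought; 3 had an unadjusted p below 0.05, as 26.2% of all tested genes did, and DESeq2 called 1 higher and 1 lower. In JL drought edgeR called no gene of any of these lists. An unadjusted edgeR p below 0.05, for a change in either direction, was found for 6 of the 21 LEA genes. Such a p was found for 3 of the 29 ABA and 8 of the 69 phosphatase genes. It was also found for 5 of the 52 other stress-responsive genes, against 3.71% of all tested genes. No DREB or casein kinase 2 gene had such a p. DESeq2 called 1 gene each of the LEA, ABA and phosphatase lists, all higher in drought.

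Likeness to each dehydrin was measured as the root mean square difference between centred log2 CPM values over the 12 libraries, with 0 for identical patterns, among 20872 other tested genes. The values are a description, since all patterns share the same libraries. Nearest to DHN1 was SWEET15 (LOC8056792), a sugar transporter gene, at 1.28, against a median of 5.39 over all genes. SWEET15 had 1029, 900.1 and 198 CPM in SCS drought, against 0 counts in SCS control, and 0, 4.96 and 0 CPM in JL drought, against 2.55, 0 and 0 CPM in JL control. The next 4 were an uncharacterized gene (LOC8059722, 1.81), laccase-13 (LOC8058891, 1.90), a gene for a low-temperature-induced 65 kDa protein (LOC8065192, 2.00) and PV42a (LOC8074660, 2.06), a gene for a gamma-like subunit of SNF1-related kinases.

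**Figure D4:**
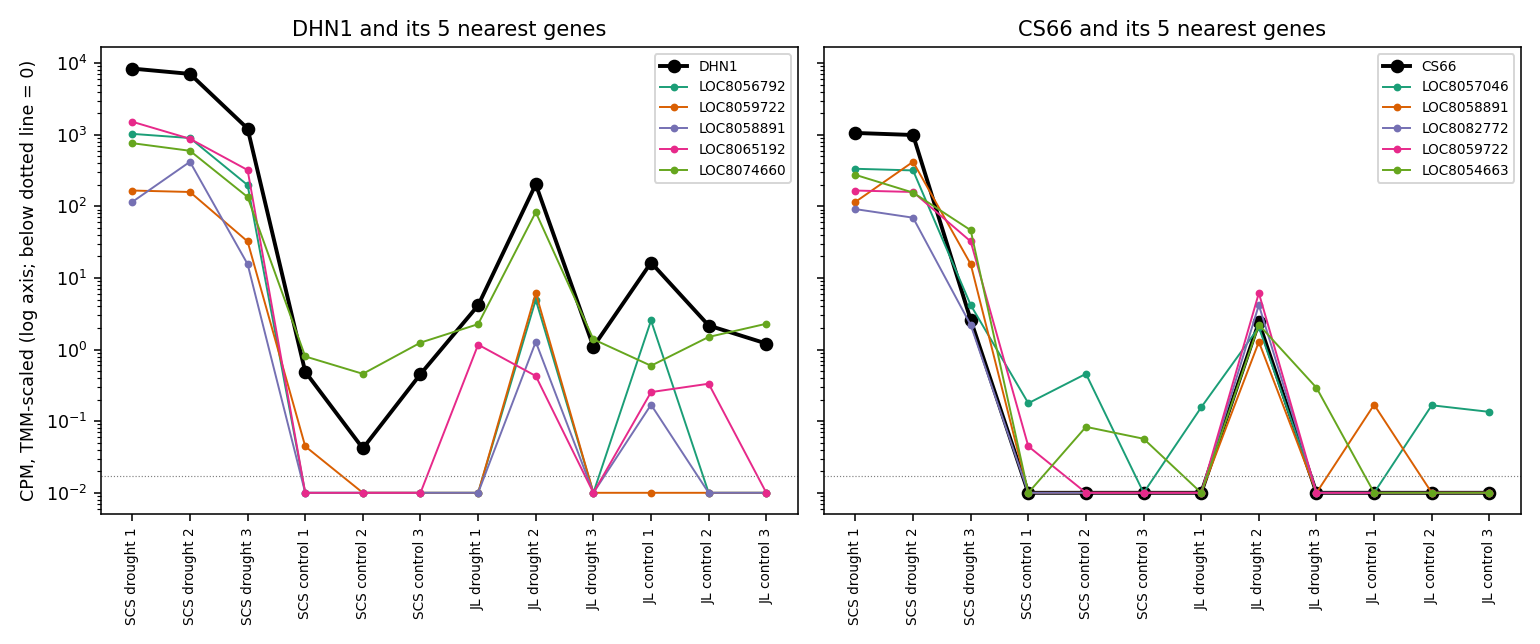
DHN1 (left) and CS66 (right) with the 5 genes whose patterns were most like each, as CPM (TMM-scaled) on a log axis, in each of the 12 libraries; lines join the libraries only to guide the eye, and values of 0 are drawn below the dotted line. SCS drought libraries 1 and 2 stood above SCS drought library 3 for every gene shown, and JL drought library 2 stood above JL drought libraries 1 and 3 for every gene shown except LOC8065192.

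Nearest to CS66 was an actin-depolymerizing factor 3 gene (LOC8057046), whose product severs actin filaments, at 1.14, against a median of 4.89. It shared the drop in SCS drought library 3, with 335, 318 and 4.19 CPM in SCS drought, against 0.178, 0.459 and 0 CPM in SCS control. The next 4 were laccase-13 (1.302), 2 uncharacterized genes (LOC8082772 at 1.41 and LOC8059722 at 1.55) and the LEA gene for embryonic protein DC-8 (LOC8054663, 1.61). Laccase-13 and LOC8059722 were thus among the nearest 5 of both dehydrins. DHN1 and CS66 were 2.26 apart, which made CS66 the 12th nearest gene to DHN1 and DHN1 the 48th nearest to CS66. Within the dehydrins Rab25 was the nearest to both, at 2.11 from DHN1 and 2.05 from CS66.

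The 2 genes on each side of DHN1, of which the closest is annotated SRC2 (LOC8077912) and ends 8708 bases before it, had 0 counts in all 12 libraries. CS66 lies 857 bases after a gene for an O-methyltransferase of ubiquinone synthesis (LOC8071329), which averaged 5.27 ± 3.55 CPM in SCS drought and 1.85 ± 0.895 CPM in SCS control (SD, n = 3 each; edgeR adjusted p = 0.272). Its highest group mean, like that of CS66, was in SCS drought, and it was called higher there than in JL drought, where it averaged 0.752 ± 0.843 CPM (SD, n = 3; log2 difference 2.79 ± 0.86, edgeR adjusted p = 0.0465). An uncharacterized gene (LOC8071331) that starts 642 bases after CS66 averaged 2.30 ± 1.07 CPM in SCS drought and 3.59 ± 0.735 CPM in SCS control (SD, n = 3 each; edgeR adjusted p = 0.483). None of the 4 genes around CS66 was called in SCS drought against SCS control; the other two had edgeR adjusted p of 0.0802 and 0.522.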

How the data were processed

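The data were leaf RNA libraries of 12 sorghum samples in 4 groups, grouped by the cultivar and water supply in the labels. Tools listed, without their roles, in the submitters' processing notes are StringTie 1.3.3b, HISAT2 2.0.4 and STAR. Not given in the sources used here are the read counter, its strand setting, its treatment of near-identical gene copies and the build. The authors deposited whole-number counts per gene, not normalised, and FPKM values, which per the file values equal counts over length and over a constant of 0.998 to 1.04 times the TMM-scaled total.

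DHN1 and CS66, the gene lists (search patterns on product names, corrected for false matches) and the comparisons were chosen with earlier results of these data known. Of 33897 genes, filterByExpr in edgeR 4.0.16 (R 4.3.3) kept 20873. The quasi-likelihood F test was fitted to the counts of all 12 libraries with TMM scaling and 1 mean per group, at a biological coefficient of variation of 63.3%. Calls were made below an adjusted p of 0.05 (Benjamini-Hochberg over the whole table), and "rose" or "fell" is used of called genes. CPM are TMM-scaled, and values after ± are SD of libraries or, for log2 fold changes, the SE of the fit. A group at 0 counts was set to 3 counts over the group to give a lower bound; such limits cover counting error only. Permutation tests used scipy 1.17.1 and log2 CPM (prior count 2). Named genes are both members, all dehydrins, the 5 genes nearest to each member, and of each other list up to 3 called genes with the largest absolute log2 fold change in SCS and at least 10 CPM. Alternatives used DESeq2 1.42.0 and limma 3.58.1. No library was treated as a repeat of another (chi-square per gene 39.8 to 276 between libraries of 1 group). The fits were tested on simulated data.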

Additional observations from a re-analysis of the deposited data

Results flagged for a closer look

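The drought change of the low-temperature-induced 65 kDa protein gene (LOC8065192), one of the 5 genes most like DHN1, differed between the cultivars by 15.42 ± 2.54 on the log2 scale (SCS change minus JL change, fitted value ± SE; edgeR interaction term, adjusted p = 0.0456). Of all tested genes 0.513% were called in that comparison. The gene had 1519, 879 and 322 CPM in SCS drought, against 0 counts in SCS control, and 1.17, 0.428 and 0 CPM in JL drought, against 0.255, 0.334 and 0 CPM in JL control. With SCS control at 0 the fitted size depends on the prior count. The call remained in 1 of 12 fits that left out a library, that without SCS drought library 3, with an adjusted p of up to 0.192 in the others. The gene was named for its likeness to DHN1 in the same libraries, and DHN1 was chosen for its rise in SCS drought. It also passed the filter on low counts through SCS drought alone. A difference was thus partly built in, and the adjusted p is given as a description only.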

How the results depend on the processing

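For DHN1 in SCS drought against control the fitted log2 fold change was 14.04, with 11.73 on log2(FPKM + 1) and 13.49 to 14.51 when each library was left out. For CS66 it was 16.49, a value that depends on the prior count, with 12.49 at a prior count of 2, 6.79 on log2(FPKM + 1), 9.92 on log2(FPKM + 0.1) and 16.01 to 17.02 leaving out each library. In JL, leaving out each library gave -1.33 to 5.36 for DHN1 and 0 to 7.34 for CS66; the sign of DHN1 turned, and CS66 fell to 0, without JL drought library 2, the library that holds the CS66 counts. The SCS minus JL change of DHN1 ran from 8.68 (without JL control library 1) to 15.37, its SCS minus JL difference in drought from 5.75 to 11.05, and that in control from -4.81 to -2.36, with -1.98 on log2(FPKM + 1). For CS66 the SCS minus JL difference in drought was 9.77, with 9.17 to 16.52 leaving out each library, 6.32 on log2(FPKM + 1) and 8.55 on log2(FPKM + 0.1); for DHN1 these last values were 8.36 and 8.71. The fit of the compared JL libraries alone gave no CS66 value because the gene was filtered out.

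Counts of called genes moved more. In SCS drought they were 1984 (854 higher, 1130 lower), 4030 with DESeq2, 1726 with the compared libraries alone (970 higher, 756 lower) and 533 (without SCS control library 3) to 2619 (without SCS drought library 3) leaving out a library. In JL they were 0, 36 with DESeq2 and 0 to 2. For SCS change minus JL change they were 107, 1323 with DESeq2 and 8 to 424. For SCS minus JL in drought they were 3916, 6011 with DESeq2, 1247 with the compared libraries alone and 1811 to 3507; in control they were 5, 626, 11 and 0 to 6 in the same order. Of the 3 dehydrins other than DHN1 and CS66, 2 were called in SCS drought, and 0 to 3 leaving out a library. List counts leaving out each SCS library, chosen after seeing the data, were 2 to 4 higher and 0 to 3 lower for ABA genes, 0 to 1 higher for DREB factors, 5 to 10 higher for other stress-responsive genes, 0 to 1 lower for casein kinase 2, and 1 to 11 higher and 0 to 5 lower for phosphatases. The cause of these shifts was not tested.

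The main fit did not take the replicate numbers to pair the samples. Deviations of same-numbered libraries correlated at -0.371 to 0.0525 in SCS and -0.182 to 0.108 in JL. Between the cultivars they correlated at -0.0374 to 0.383 in drought and -0.491 to -0.224 in control. Differently numbered libraries reached 0.365 in SCS and 0.346 in JL, and between the cultivars 0.429 in drought and 0.442 in control. With 3 libraries per group these values cannot settle whether samples were paired. A fit with the replicate block called 1399 genes in SCS drought, with the same count of 2 other dehydrins, 0 in JL, 17 for SCS change minus JL change, 2748 for SCS minus JL in drought and 0 in control. For a gene at 0 counts in a library, such as CS66, depth allows a level of up to 0.1249 to 0.256 CPM.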
